A study of Homo sapiens with 30 samples.

Results

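SK-BR-3 is an established human breast cancer cell line of luminal type that carries an amplified ERBB2 gene. Its response to bone morphogenetic protein 4 (BMP4) was followed on 6 arrays out of the 30 arrays of 5 breast cancer cell lines in the whole series. The arrays were those labelled SK-BR-3, taken 30 min and 1, 3, 6, 12 and 24 h after addition of recombinant human BMP4. Each array compared BMP4-treated cells, whose RNA carried the dye Cy5, with cells kept in vehicle for the same time, whose RNA carried Cy3. Treatment began 24 h after plating in 24-well plates, and RNA of both channels came from 3 cultures pooled before extraction. The other lines, ZR-75-30, MDA-MB-361, HCC1954 and HCC1419, had 6 arrays each at the same time points and were treated in the same way. There was 1 array per time point in a line, the dyes were not swapped, and no spread between cultures can be read from pooled RNA.

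BMP4 is a secreted ligand that binds a complex of type I and type II serine/threonine kinase receptors. The activated receptors phosphorylate SMAD1, SMAD5 and SMAD8 (SMAD9), which enter the nucleus with SMAD4 and act on transcription. The ID genes, which encode helix-loop-helix proteins that bind and block other transcription factors, are the best known direct targets. Other targets, among them SMAD6, SMAD7 and BAMBI, feed back on the pathway as inhibitors. In epithelial cancers the same ligand has been tied to growth arrest, migration and changes of differentiation.

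The ratios are log2 of Cy5 over Cy3, background corrected and then normalized by loess one array at a time, so 1 stands for 2-fold and a positive value for a higher signal with BMP4. Of 41000 probes, 22686 were well above background in at least 1 channel on all 6 arrays, and 22631 of these had a value on every array and were kept. They included 17394 probes with a gene name, for 11751 genes. The late ratio is the mean of the 3, 6, 12 and 24 h arrays, and the late change is that mean minus the 30 min value. A probe was held where it reached 2-fold in 1 direction on 2 or more consecutive time points.

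The 30 min and 1 h arrays lay on 1 slide and the other 4 on another slide scanned on another day, so the late change and the slide cannot be told apart. Spike-in controls of known ratio returned a slope of 0.644 and 0.703 on the first slide and of 0.822 to 0.877 on the second (1 would be no compression), and the part of this difference in the results was not tested. In the vehicle channel ERBB2 stood at 7.45 ± 0.39 (SD, n = 6 arrays), on a log2 scale on which the 75th percentile of each array is 0. The epithelial genes KRT8, KRT18, KRT19 and TACSTD1 (EPCAM) were well above background on 6 of 6 arrays. ESR1, PGR and CDH1 were well above background on 0 of 6 arrays in SK-BR-3, whereas CDH1, the epithelial cadherin, was on 6 of 6 in each of the other lines. Of markers of other cell types, PTPRC, PECAM1, COL1A2, COL3A1, PDGFRB, DCN and LUM were above background on 0 of 6 arrays, and ADIPOQ was at 1.76 ± 0.43 (SD, n = 6).

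In SK-BR-3, 38 of the 22631 kept probes were held, 32 up (0.141% of kept probes) and 6 down (0.0265%). They included 25 probes with a name, for 24 genes. The members follow from the ratios themselves, so their SK-BR-3 values are given as a description. The probes were grouped by the time points held, except that known BMP targets and GPR30 were set apart by gene after their values were seen. That first group of 7 probes was higher at 3, 6 or 12 h and covered 5 BMP target genes (ID1, ID2, ID4, JUNB and DLX2) and GPR30, the older symbol of the G protein-coupled estrogen receptor GPER1. A second group of 4 was held at 12 and 24 h (UNC5B, GNE, SMPDL3A and SIGLEC6). Held at 6 and 12 h alone were 14 probes, of which 2 were the DLX2 probes of the first group and 12 formed a group of their own. A further 7 were held at 30 min and 1 h alone, and 6 were down at 6 and 12 h alone. The last 2 probes had other runs.

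**Figure D1:**
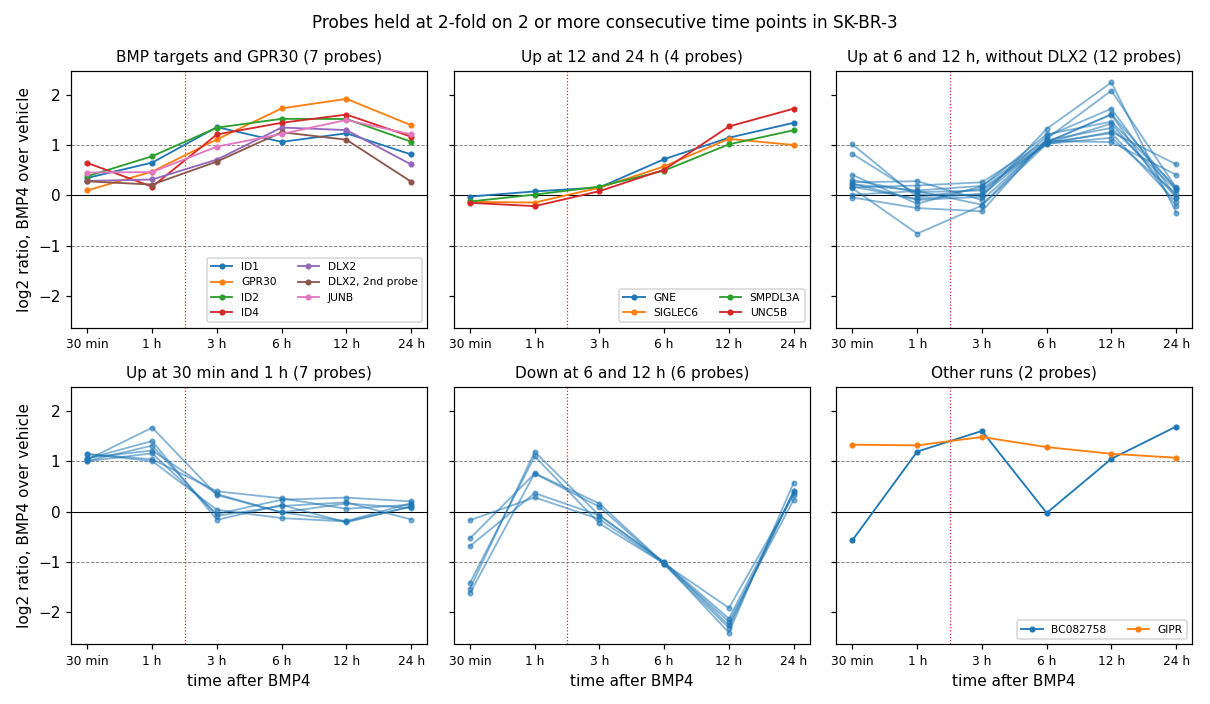
Log2 ratio of BMP4 over vehicle in SK-BR-3 (vertical axes) at the 6 time points (horizontal axes) for the 38 held probes, 1 line per probe and 1 panel per group. Dashed lines mark 2-fold and the red dotted line the change of slide. The BMP targets and GPR30 and the probes held at 12 and 24 h stayed up at 24 h in most cases, whereas the 12 other probes up at 6 and 12 h returned to between -0.34 and 0.62.

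The proximal promoters of the 6 genes of the first group are shown because they moved together. Each sequence is the 250 bases before the RefSeq transcription start, on GRCh38.p14 and written 5′ to 3′ on the strand of the gene. Capitals mark CAGAC or GTCTG, the SMAD-binding box on either strand, and TATAAA, the TATA box, searched on the gene's strand only.
ID1, chr20:31605039-31605288, plus strand: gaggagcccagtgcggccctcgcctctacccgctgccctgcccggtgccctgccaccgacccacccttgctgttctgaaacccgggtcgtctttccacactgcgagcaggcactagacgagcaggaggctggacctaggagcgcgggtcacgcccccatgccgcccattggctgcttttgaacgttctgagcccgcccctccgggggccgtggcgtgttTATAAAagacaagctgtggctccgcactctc
ID2, chr2:8681806-8682055, plus strand: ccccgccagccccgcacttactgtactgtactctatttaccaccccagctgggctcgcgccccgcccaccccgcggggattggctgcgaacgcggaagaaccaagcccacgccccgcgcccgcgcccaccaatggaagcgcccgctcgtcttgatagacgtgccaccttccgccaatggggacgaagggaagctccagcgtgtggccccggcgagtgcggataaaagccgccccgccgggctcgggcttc
ID4, chr6:19837120-19837369, plus strand: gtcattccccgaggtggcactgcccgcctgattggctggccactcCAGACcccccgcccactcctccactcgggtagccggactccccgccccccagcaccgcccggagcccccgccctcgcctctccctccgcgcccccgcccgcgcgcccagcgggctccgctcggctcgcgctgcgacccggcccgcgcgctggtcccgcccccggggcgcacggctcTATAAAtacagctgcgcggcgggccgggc
JUNB, chr19:12791236-12791485, plus strand: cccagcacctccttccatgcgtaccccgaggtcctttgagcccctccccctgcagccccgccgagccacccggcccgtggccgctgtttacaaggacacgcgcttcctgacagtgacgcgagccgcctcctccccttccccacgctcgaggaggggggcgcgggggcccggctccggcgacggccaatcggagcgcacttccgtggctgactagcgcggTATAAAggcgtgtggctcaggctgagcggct
DLX2, chr2:172102901-172103150, minus strand: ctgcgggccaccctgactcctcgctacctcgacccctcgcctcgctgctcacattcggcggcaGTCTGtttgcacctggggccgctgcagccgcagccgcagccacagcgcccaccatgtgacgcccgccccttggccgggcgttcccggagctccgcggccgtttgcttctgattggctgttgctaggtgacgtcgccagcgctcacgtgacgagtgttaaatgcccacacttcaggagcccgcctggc
GPER1, first start, chr7:1086868-1087117, plus strand: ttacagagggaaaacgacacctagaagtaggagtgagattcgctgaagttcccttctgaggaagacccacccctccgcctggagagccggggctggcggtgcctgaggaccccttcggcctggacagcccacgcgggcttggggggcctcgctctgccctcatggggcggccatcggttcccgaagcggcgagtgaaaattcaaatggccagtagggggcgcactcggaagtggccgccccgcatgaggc
GPER1, second start, chr7:1087863-1088112, plus strand: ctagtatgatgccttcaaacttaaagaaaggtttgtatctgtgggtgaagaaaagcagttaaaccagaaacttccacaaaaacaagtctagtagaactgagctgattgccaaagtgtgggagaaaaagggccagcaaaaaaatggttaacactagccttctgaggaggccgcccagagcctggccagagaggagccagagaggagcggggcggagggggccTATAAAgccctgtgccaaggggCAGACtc
The SMAD-binding box was found once each before ID4, DLX2 and the second start of GPER1, and 38.0% of 35116 RefSeq promoters of the same length held it. TATAAA stood before ID1, ID4, JUNB and the second start of GPER1, against 6.8% of those promoters. GGCGCC, a GC-rich box to which BMP SMADs bind, was in none of the 7 windows and in 16.4% of promoters. A match is a run of letters and not a bound site, and sequence farther from the start was not looked at.

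Among the ID genes, ID1, ID2 and ID4 were held. ID1 was 0.35 at 30 min and 0.65 at 1 h, and then 1.36, 1.06, 1.23 and 0.81 at 3, 6, 12 and 24 h. ID2, by its brighter probe, was 0.38, 0.78, 1.34, 1.52, 1.52 and 1.06 at the same times, and ID4 was 0.64, 0.17, 1.21, 1.44, 1.60 and 1.17. All 3 genes were thus below 2-fold at both early time points and above it at 3, 6 and 12 h, with every late array above both early ones. A second ID2 probe ran at -0.09, 0.73, 1.08, 0.99, 0.98 and 0.98 and just missed the rule for held probes. ID3 stood apart from its paralogs, at -0.17, 0.33, 0.56, 0.34, 0.24 and 0.66, and did not reach 2-fold at any time.

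JUNB, a subunit of the AP-1 transcription factor, was 0.45, 0.46, 0.97, 1.22, 1.5 and 1.21 from 30 min to 24 h. A second, dimmer JUNB probe lay between -0.35 and 0.59 and was not held, so the probes of this gene disagree. DLX2, a homeobox transcription factor, was 0.29, 0.31, 0.71, 1.35, 1.30 and 0.61. Its second held probe was 0.28, 0.21, 0.67, 1.25, 1.1 and 0.27, and its remaining probe reached 2-fold at 3 h alone (1.05). DLX2 thus reached 2-fold later than the ID genes by 2 of its 3 probes and was back under it at 24 h.

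GPR30, a membrane receptor with affinity for estrogens, had the highest late ratio of the held probes. It was 0.10 at 30 min and 0.47 at 1 h, and 1.11, 1.73, 1.92 and 1.39 on the late arrays in order of time. It was at 2-fold on all 4 late arrays, and was the 1 probe left when the threshold was set to 3-fold. The gene was also among those the study ranked high over all lines, so it was not chosen independently of these arrays.

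Against a ratio of 0, limma with Benjamini-Hochberg adjustment called 8 probes by their late ratio, all of them higher (0.0353% of kept probes). At an unadjusted p under 0.05, 2064 probes were higher and 2049 lower. The late ratio was 1.36 ± 0.09 (SE, 4 late arrays) for the brighter ID2 probe, 1.01 ± 0.06 for the other ID2 probe, 1.36 ± 0.09 for ID4 and 1.25 ± 0.09 for GIPR, all with an adjusted p of 0.0337 in limma. JUNB (1.22 ± 0.10), SARDH (0.83 ± 0.07), ZNF175 (0.78 ± 0.07) and ZC3H7B (0.73 ± 0.06) had an adjusted p of 0.0488. SARDH encodes a mitochondrial enzyme of sarcosine breakdown, and ZNF175 and ZC3H7B encode zinc finger proteins. SARDH was already at 0.55 and 0.60 at 30 min and 1 h, with a late change of 0.27. Its probe lay between 0.33 and 0.92 on every array of the other lines. ZC3H7B was 0.28 at 30 min and -0.75 at 1 h. A second ZNF175 probe was 0.04, 1.33, 0.71, 0.70, 0.73 and 0.21 from 30 min to 24 h. GPR30 (1.54) and ID1 (1.12) had an adjusted p of 0.058. This test treats the 4 late time points as replicates and, with no dye swap, a ratio against 0 includes any dye bias of a probe. No probe was called without the 3 h, the 6 h or the 24 h array, while 13 were called without the 12 h array.

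The late change, late arrays minus 30 min, had no probe past the threshold in either direction. The lowest adjusted p in limma was 0.168, with 1389 probes higher and 853 lower at an unadjusted p under 0.05. Among held genes GPR30 had a late change of 1.44 ± 0.31 (SE), the brighter ID2 probe of 0.98 ± 0.21, ID1 of 0.77 ± 0.23, JUNB of 0.77 ± 0.21 and ID4 of 0.71 ± 0.21, with adjusted p-values of 0.28 to 0.36. Without the 12 h array limma called 12 probes higher and 2 lower. Within the second slide alone, 6, 12 and 24 h against 3 h, limma called 0 probes, with 257 higher and 117 lower at an unadjusted p under 0.05.

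The list of BMP target and feedback genes held 22 genes, of which 17 were kept. By their brightest probe 10 of the 17 had a late ratio of 1.5-fold or more upward and none downward, where 0.415% of all kept probes were that far up and 0.91% that far down. All 4 late arrays were above 0 for 14 of the 17 (13.4% of kept probes) and all 4 were above 30 min for 12 (25.9%). The median of the list went from 0.22 at 30 min and 0.33 at 1 h to 0.49, 0.73, 0.78 and 0.61 on the late arrays in order of time. Its median late ratio was 0.64, against 0.00 over all kept probes. By late ratio limma called 3 of the 17 (ID2, ID4 and JUNB) and 0.0353% of kept probes. The list was drawn up with earlier results of these data known. The study ranked some of its members, among them the ID genes, HEY1 and DLX2, high partly on these samples. The counts are therefore not independent evidence.

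**Figure D2:**
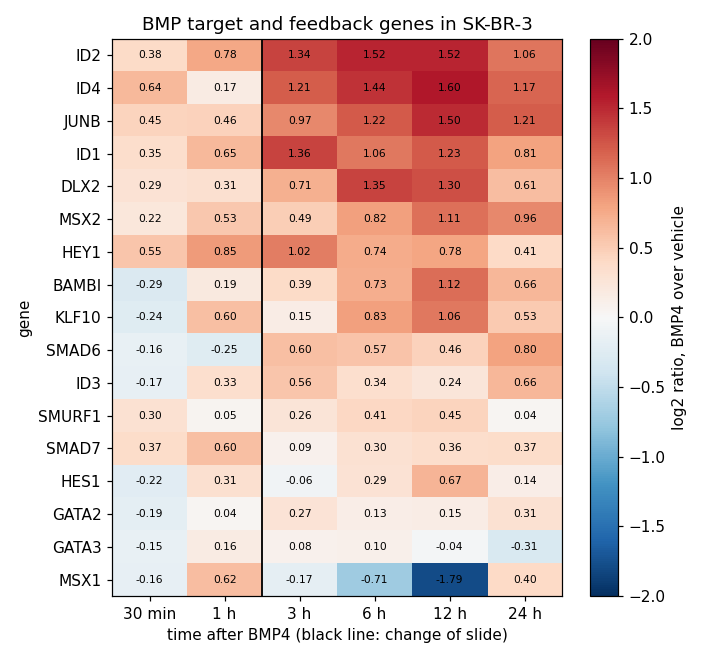
Log2 ratio of BMP4 over vehicle in SK-BR-3 for the 17 kept BMP target and feedback genes (rows, ordered by late ratio) at 6 time points (columns), with the value printed in each cell and red for higher with BMP4. The black line marks the change of slide. ID2, ID4, JUNB and ID1 lie between 0.81 and 1.60 from 3 h on, and MSX1 is lowest at 12 h (-1.79).

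The feedback inhibitors differed in size. SMAD6, which blocks the BMP receptors and SMAD1, was -0.16, -0.25, 0.60, 0.57, 0.46 and 0.80 from 30 min to 24 h, and every late value was above both early ones. BAMBI, a decoy receptor without a kinase, was -0.29, 0.19, 0.39, 0.73, 1.12 and 0.66 and crossed 2-fold at 12 h alone. SMAD7 was 0.37, 0.60, 0.09, 0.30, 0.36 and 0.37, so its highest value was at 1 h, and its late change of -0.09 changed sign under 3 other normalizations (0.027 to 0.14). None of these values passed the test.

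Among other transcription factors of the list, HEY1, a Notch and BMP target, was 0.55, 0.85, 1.02, 0.74, 0.78 and 0.40, and was the highest of the list at 1 h. MSX2, a homeobox factor, was 0.22, 0.53, 0.49, 0.82, 1.11 and 0.96 and KLF10, a zinc finger factor of TGF-beta signalling, -0.24, 0.60, 0.15, 0.83, 1.06 and 0.53. MSX1 ran the other way, with -0.16, 0.62, -0.17, -0.71, -1.79 and 0.40. It was thus lowest at 12 h and near 0 at 30 min and 3 h. This course was not particular to MSX1. The 617 kept probes 2-fold lower at 12 h, MSX1 among them, had medians of -0.51, 0.59, 0.00, -0.69, -1.84 and 0.39. GATA3 stayed between -0.31 and 0.16.

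Receptors and signal transducers moved little by late ratio. Of 20 listed genes 16 were kept, and none had a late ratio of 1.5-fold or more in either direction. BMPR1A, a type I receptor, was highest at 12 h (0.73), and BMPR2, the type II receptor, lay between -0.13 and 0.41. SMAD1 lay between 0.12 and 0.28 and SMAD4 between -0.13 and 0.34. Of 26 ligands and secreted antagonists only 9 were kept, again with none at 1.5-fold, and BMP4 itself, BMP2, NOG and GREM1 were not among those kept. RGMA, a BMP co-receptor, was on the list of receptors and signal transducers. It was 0.98 at 30 min, 1.34 at 1 h and 0.10 to 0.20 on the late arrays.

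A list of 18 genes was picked for this report from the longer ranking of the study over the cell lines. Of the 15 found on the array by symbol 8 were kept in SK-BR-3. All 8 were above 0 on all 4 late arrays (13.4% of kept probes). The genes picked were nearly always up in that ranking, which rested partly on these samples, and genes ranked there as down were left out. The direction of the 8 is therefore not independent evidence. Beside GPR30, the genes at 1.5-fold or more by late ratio were DUSP2, a MAP kinase phosphatase, at -0.30, 0.51, 0.62, 0.90, 0.86 and 0.99, MAP3K5, a stress kinase, at 0.66, 0.05, 0.85, 0.99, 1.05 and 0.25, and SAMD11 at -0.33, 0.05, 0.67, 0.72, 0.44 and 0.59. EDN2, which encodes an endothelin, reached 0.52 at most in SK-BR-3 and had a mean late ratio of 1.23 in the other lines.

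The 4 genes held at 12 and 24 h were grouped by that run, so a later start than that of the BMP targets follows from the grouping. UNC5B, a netrin receptor, was -0.15, -0.22, 0.08, 0.51, 1.37 and 1.72 from 30 min to 24 h. GNE, the enzyme that starts sialic acid synthesis, was -0.03, 0.08, 0.16, 0.72, 1.14 and 1.44. SMPDL3A, a secreted phosphodiesterase, was -0.12, 0.01, 0.17, 0.49, 1.01 and 1.29, and its second probe was 0.44, 0.31, 0.09, 0.52, 1.04 and 0.95, with a late change of 0.21. SIGLEC6, a lectin that binds sialic acid, was -0.13, -0.14, 0.15, 0.57, 1.12 and 1.00, while its second probe was 0.10, 0.38, 0.09, 0.07, 0.24 and 0.83. By the held probes each value of UNC5B, GNE and SMPDL3A from 3 h on was above the one before, and all 4 genes lay between -0.22 and 0.17 at 30 min, 1 h and 3 h. None of the 4 late changes passed the test (adjusted p in limma 0.53 to 0.64).

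GIPR, the receptor of glucose-dependent insulinotropic polypeptide, had a different shape. By its held probe it was 1.33, 1.32, 1.49, 1.29, 1.15 and 1.07, at 2-fold on every array from 30 min on, with a late change of -0.08. The same probe was also above 0 on every array of the other lines, between 0.31 and 2.24. The second GIPR probe was -0.07, 0.09, -0.02, -0.53, -1.85 and 0.46, so the probes disagree, and with unswapped dyes a bias of the first probe toward Cy5 was not tested.

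The genes other than DLX2 up at 6 and 12 h alone rested on a pair of arrays that resembled each other. Their median was 0.22, -0.01 and 0.02 up to 3 h, then 1.07 and 1.44, and 0.07 at 24 h. BECN1, a core autophagy protein, was 0.23, -0.09, -0.03, 1.32, 2.24 and -0.34, and SACM1L, a lipid phosphatase, was -0.04, -0.25, -0.32, 1.12, 2.08 and 0.15. The other 6 named genes were SUMO3, HNRPC (HNRNPC), MITF, MAP1LC3B, SEC24B and CEP350. Other probes of BECN1 lay between -0.30 and 0.07 and the other probe of SUMO3 between 0.17 and 0.27, and those of MITF reached 0.43 at most. HNRPC was 1.05 and 1.60 at 6 and 12 h by its held probe but -0.37 and -0.91 by a probe of the same brightness and -0.21 and -0.16 by the third, so its probes disagree in direction. MAP1LC3B, another autophagy gene, had other probes at 0.47 and 1.04 and at 0.16 and 0.37 at 6 and 12 h. Over all kept probes the 6 and 12 h arrays correlated with an r of 0.90, and the next highest pair, 30 min and 12 h, with 0.46.

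At 30 min and 1 h alone, TMEM142C (ORAI3, a calcium channel subunit), TAS2R48 (TAS2R19, a taste receptor), LY6G5C and CACHD1 were held. TMEM142C was 1.01 and 1.32 and then lay between -0.15 and 0.19, and LY6G5C was 1.04 and 1.67 and then between -0.18 and 0.33. All 7 probes of this run were at 0.41 or below on the late arrays, which were those of the other slide. The 7 probes were dim, with a median intensity of 7.92 on the log2 scale against 9.30 over all kept probes. Of the 6 probes down at 6 and 12 h only GPR78, a G protein-coupled receptor, had a name, at -0.17, 0.29, -0.15, -1.03, -2.40 and 0.58.

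The threshold of the rule cut through a continuum. Just inside lay SIGLEC6, whose lower value of the best pair of neighbouring time points was 1.00, and TAS2R48 (1.01). Just outside were OVOL1, an epithelial zinc finger factor, with 0.77, 1.00 and 1.12 at 3, 6 and 12 h (0.999 before rounding to 2 decimals), IRX3 and ELF5. With 3 or more consecutive time points 6 probes were held, all up, and with 1.5-fold in place of 2-fold 500 were held up and 485 down.

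In the other 4 lines, whose arrays the rule did not use, the groups had different values. The first group holds genes known as BMP targets, and GPR30 was ranked high by the study over these lines too. The late ratio was above 0 in all 4 other lines for 7 of 7 probes of the BMP targets and GPR30 and for 3 of 4 probes held at 12 and 24 h, against 11.3% of all kept probes. It was so for 2 of the 14 probes held at 6 and 12 h alone, both of them DLX2 probes counted in the first group as well, and so for 0 of the 12 others. It was also so for 0 of the 6 probes with values among those up at 30 min and 1 h, and for 0 of 5 of those down at 6 and 12 h. The counts for the early and the down probes do not show whether those runs recur in other lines. The early probes had medians of only 0.04, 0.12, 0.06 and 0.11 on the late arrays of SK-BR-3 itself. For the down probes a match would lie below 0, and their mean late ratios over the other lines were 0.13 to 0.43. The median late ratio over the other lines was 1.06 in the first group, 0.27 in the second, -0.06 for the 12 others at 6 and 12 h (-0.03 for all 14) and -0.05 at 30 min and 1 h. In the second group SIGLEC6 counted as above 0 with late ratios of only 0.01 to 0.13 in the other lines. GNE, the gene not counted, ranged there from -0.20 in MDA-MB-361 to 0.65 in ZR-75-30. Tested over those 4 lines, limma called 2 held probes by late ratio, ID1 (1.52) and ID2 (1.72), each with an adjusted p of 0.0205, where 4 of all kept probes (0.0177%) were called higher. The late change was above 0 in all 4 other lines for 7 of 7 probes of the first group and 2 of 4 of the second (9.43% of kept probes), and limma called 1 held probe by it, ID2, among 5 of all kept probes (0.0221%).

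**Figure D3:**
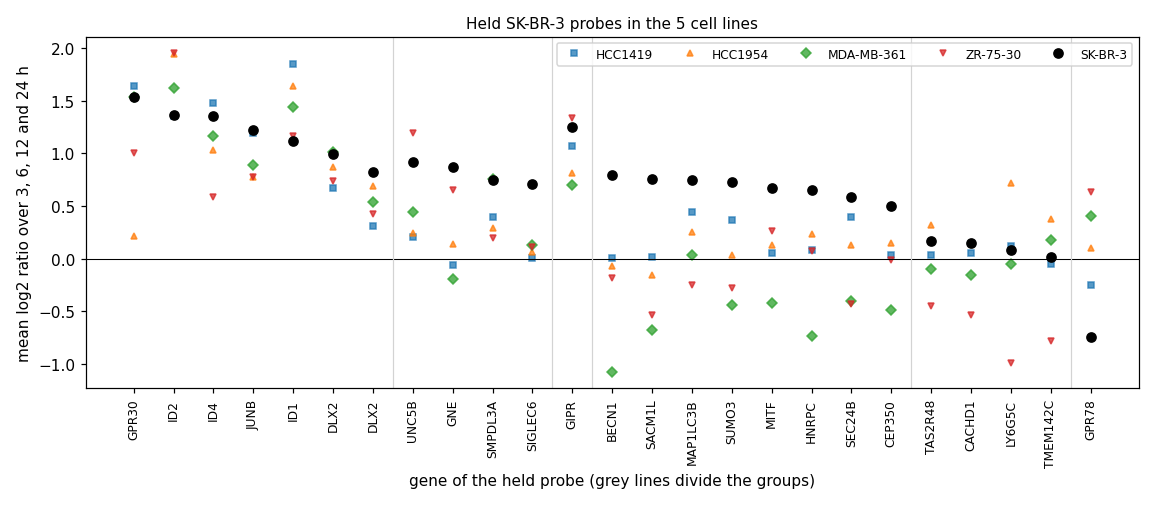
Mean log2 ratio over 3, 6, 12 and 24 h (vertical axis) for the 25 named held probes (horizontal axis, by group) in SK-BR-3 (black circles) and the other 4 lines. The BMP targets and GPR30, at the left, lie above 0 in every line, whereas the other lines scatter around 0 for the probes up at 6 and 12 h other than DLX2.

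Set against single lines, SK-BR-3 shared GPR30 with HCC1419 (1.36, 1.93, 1.88 and 1.39 at 3, 6, 12 and 24 h) and MDA-MB-361 (1.12, 1.73, 1.70 and 1.58). ZR-75-30 passed 2-fold later (0.23, 0.92, 1.62 and 1.22), while HCC1954 stayed between -0.21 and 0.38 over the 6 time points. UNC5B reached 1.92 and 1.64 at 12 and 24 h in ZR-75-30, and GNE 1.09 and 1.32 in that line, with GNE between -0.49 and 0.32 in the other 3. SMPDL3A was 0.90 and 1.17 at 12 and 24 h in MDA-MB-361. SIGLEC6 did not exceed 0.23 on any array of the other lines. At 1 h ID1 was 0.65 in SK-BR-3 and 1.06 to 1.85 in the other lines. In limma on the late change, 0 of 22631 probes differed between SK-BR-3 and the other 4 lines (lowest adjusted p 0.104, with 1356 higher and 1210 lower in SK-BR-3 at an unadjusted p under 0.05). With 1 h in place of 30 min the same comparison, 1 line against 4, called 3 probes higher and 104 lower in SK-BR-3.

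The number of probes at 2-fold moved unevenly with time. The 30 min array had 50 probes up (0.221%) and 287 down (1.27%), and the 1 h array 203 up (0.897%) and 4 down (0.0177%). The 3 h array had 11 up (0.0486%) and 0 down, and the 6 h array 22 up (0.0972%) and 6 down (0.0265%). The 12 h array had 209 up (0.924%) and 617 down (2.73%), and the 24 h array 23 up (0.102%) and 2 down (0.00884%). In all 1007 probes were at 2-fold on some array, 713 of them (70.8%) on 1 array alone and 753 (74.8%) only at 30 min, 12 h or both. At 3 h, with 11 probes, 8 belonged to ID1, ID2, ID4, DLX2, HEY1, GPR30 and GIPR, and the 2 other named genes were SLC7A8 and CCT5.

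Most probes low at 30 min were low at 12 h too, but not the reverse. Of the 287 that were 2-fold lower at 30 min, 239 (83.3%) were also 2-fold lower at 12 h and 128 (44.6%) were 2-fold higher at 1 h. Of the 617 that were 2-fold lower at 12 h, 239 (38.7%) were 2-fold lower at 30 min, and their median at 30 min was -0.51. The medians of the 287 were -1.58, 0.97, -0.02, -0.73, -1.96 and 0.37 over the 6 time points. NEUROG3, a neuronal and endocrine transcription factor, ran at -1.88, 1.15, -0.17, -0.69, -2.07 and 0.52, NEUROG1 at -1.76, 1.09, 0.10, -0.79, -2.07 and 0.30, and IER5, an immediate early gene, at -2.07, 1.01, -0.00, -0.63, -1.97 and 0.43. Across kept probes the 30 min and 1 h arrays, on the same slide, correlated with an r of -0.22, and the part of labelling or hybridization in this alternation was not tested. Without the 30 min and 12 h arrays 7 probes remained held, all up, 4 of them BMP targets.

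**Figure D4:**
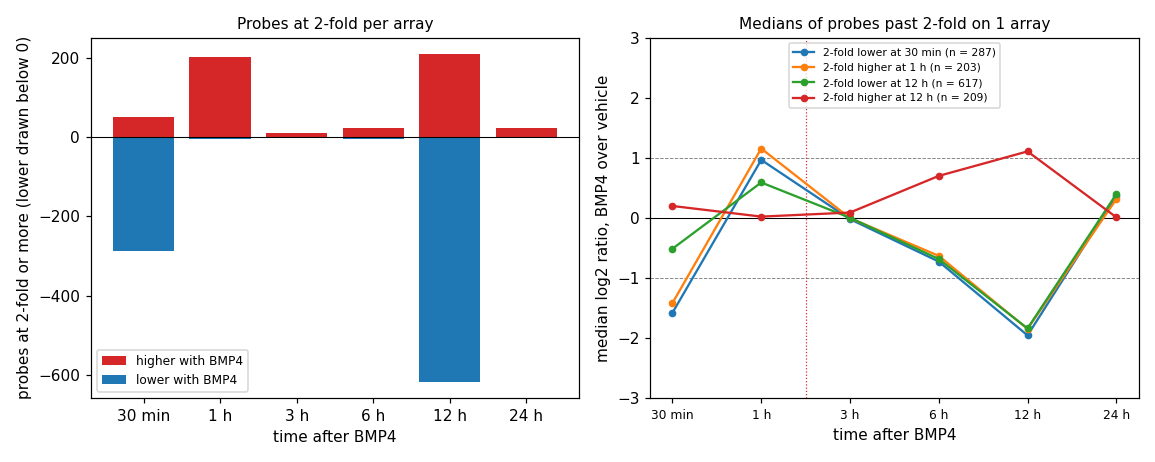
Left, number of kept probes at 2-fold or more on each SK-BR-3 array (horizontal axis, time), higher with BMP4 in red and lower in blue below 0. Right, median log2 ratio over time of the probes that passed 2-fold at 30 min, 1 h or 12 h, with the red dotted line at the change of slide. The medians of probes lower at 30 min, higher at 1 h and lower at 12 h follow the same zigzag, -1.58 at 30 min and -1.96 at 12 h for the first.

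The largest late changes by moderated t, none of them called, came mostly from the 30 min array. RPL37A, a ribosomal protein gene, was -1.33 at 30 min, 1.68 at 1 h and -0.15 to 0.07 later, and MALAT1, a nuclear long non-coding RNA, was -1.73, 1.86 and then -0.01 to 0.53. CTNNB1, which encodes beta-catenin, was 1.14, -1.14 and then -0.17 to 0.22, while its dimmer probe was -0.32, -0.47 and then -0.05 to 0.28, with no such swing. The second RPL37A probe was -0.39 at 30 min and 0.58 at 1 h. By the brighter probes the late mean was near 0 while the early values stood on opposite sides of it. Against 1 h in place of 30 min, 9 of the 20 genes with the largest late rises and falls, these 3 included, changed sign. DUSP2 (late change 1.14 ± 0.18), PHLDA2 (0.87 ± 0.13) and SKI (0.92 ± 0.14) kept it among the rises, and PHF17 (JADE1, -1.01 ± 0.15) and HOXB13 (-0.89 ± 0.14) among the falls. SKI is a repressor of SMAD signalling, and its other 2 probes had late changes of 0.07 and 0.49. The second DUSP2 probe had one of 0.43, and the other 2 of PHF17 had -0.44 and -0.05.

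Some genes reached 2-fold at 24 h alone, and part of them are described here after their values were seen. On the 24 h array 23 kept probes were 2-fold up in all (0.102%). KRT9 and KRTAP3-1 (1.09 each) and LRRC15 (1.03) also passed 2-fold at 24 h alone and are not followed further. KRT23, a type I keratin, was between -0.32 and 0.41 up to 12 h and 2.27 at 24 h. ALDH1A1, an aldehyde dehydrogenase of retinoic acid synthesis, was 0.74 at 12 h and 1.32 at 24 h, and ANXA1, a phospholipid-binding protein, 0.54 and 1.25. CCK reached 1.37, P11 (ENDOU) 1.43, TFEB, a regulator of lysosomal genes, 1.17, and GPX3 1.1 at 24 h. At that time KRT23 was 0.96 in ZR-75-30 and at most 0.43 in the other 3 lines. ANXA1 was 1.16 in ZR-75-30, 0.81 in both HCC1419 and MDA-MB-361 and 0.13 in HCC1954. CCK was 1.83 and ALDH1A1 1.2 in HCC1419, and both were at 0.49 or below in the other 3 lines. P11 was 0.71 in ZR-75-30 and at most 0.25 elsewhere. TFEB and GPX3 were at 0.45 or below in all 4 other lines at 24 h, though TFEB was 0.61 at 12 h in ZR-75-30. Each of these values rests on 1 array.

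Few members of the other gene groups reached 1.5-fold. None of 26 proliferation genes had a late ratio of 1.5-fold or more in either direction. Their median late ratio was -0.12, with 9 below 0 on all 4 late arrays (14.8% of kept probes) and 2 above. MCM7 (-0.37) and CDC20 (-0.28), which act in DNA replication and mitosis, were among the lowest and TYMS (0.27) the highest. None of 14 genes of the ERBB2 family and amplicon, 20 luminal genes, 10 basal and mesenchymal genes, 22 cholesterol and fatty acid genes, 18 hypoxia genes or 12 interferon genes reached 1.5-fold. Among luminal genes CLDN3, a tight junction claudin, was -0.34 at 30 min, -0.48 at 1 h and -0.43 to -0.61 later, and SPDEF and ELF3, epithelial ETS factors, had late ratios of -0.49 and -0.48. Of 21 stress genes DDIT4, an inhibitor of mTOR signalling, reached 1.5-fold (-0.10, 0.42, 0.61, 0.47, 0.63 and 0.81), and of 20 immediate early genes JUNB and JUND did. Of 13 Notch and WNT genes HEY1 was at 1.5-fold upward. Of 6 developmental transcription factors kept, FOXE1, NEUROG1 and NEUROG3 were at 1.5-fold downward, and the median of the list was -1.25, 0.82, 0.06, -0.71, -2.05 and 0.35 over the 6 time points. MYCN, a MYC family factor, was the 1 gene at 1.5-fold (downward) of 13 CDK inhibitors, D cyclins and MYC genes, at -1.21, 0.90, 0.10, -0.77, -2.05 and 0.35. It was among the 617 probes 2-fold lower at 12 h, whose medians had a similar course. None of the genes in these groups other than JUNB passed the test.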

How the data were processed

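Per the labels, RNA pooled from 3 cultures was labelled with Cy3 (vehicle) or Cy5 (BMP4) and hybridized to two-colour Agilent whole human genome arrays. The file headers give 9.5.1.1 as the version of grid placement in Feature Extraction, whereas the paper names another version of that software. Probe positions were on hg18. The deposited spot means, local backgrounds and processed signals are intensity values, the software's log ratio is a deposited log10 value, and the authors' series matrix holds log2 ratios with a median of 0 on each array. The p-value columns deposited beside the log ratio were not used.

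Each array had 45015 spots. Spot means were corrected with normexp (offset 50), 1639 control spots were dropped, and log2 ratios were normalized by loess within each array and averaged per probe with limma 3.58.1 in R 4.3.3. Per SK-BR-3 array 58.9% to 66.3% of probes were well above background in Cy3 and 56.3% to 66.5% in Cy5. The median SD over the 10 spots of repeated probes was 0.0609 to 0.102, and the number of arrays limits the precision. Probes were named by accession or symbol against RefSeq, and 13249 of 41000 stayed unnamed.

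Each time point was 1 group with 1 array per line. The SK-BR-3 model had the periods 30 min, 1 h and late (3, 6, 12 and 24 h) with 3 residual degrees of freedom, and limma's eBayes with Benjamini-Hochberg adjustment over all kept probes called an adjusted p under 0.05. SK-BR-3 was compared with the other lines on 1 late change per line. The fits were tested on simulated data. Named were the BMP targets, held genes, the 10 largest late rises and falls by moderated t, called genes and identity markers, by the held or called probe where there was one and otherwise by the brightest kept probe. The members, gene lists and rules were chosen with earlier results of these data known. Alternatives were other normalizations, filters, baselines, thresholds and left-out arrays.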

Additional observations from a re-analysis of the deposited data

Results flagged for a closer look

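Over the 4 late SK-BR-3 arrays, 842 of 22631 kept probes (3.72%) had 1 array far from the other 3 by Dixon's criterion, which chance gives in about 1 of 20 sets, and 6 of 71 named probes were among them. That share is below what chance gives, and time points are not replicates, so being among them does not by itself mark a change. KRT23 was 2.27 at 24 h, P11 (ENDOU) 1.43 and TFEB 1.17 at that time. DDEF1 (ASAP1) was -2.30 at 24 h by 1 of its 3 probes, but 0.52 to 0.56 there with the software log ratio, the series matrix and processed signals. At 3 h SLC7A8, an amino acid transporter, was 1.08, and the dimmer ID2 probe was 1.08 with 0.98 to 0.99 later. For GNE every late array of SK-BR-3 was above 0 and every late array of MDA-MB-361 below it (late ratio 0.86 against -0.20), a difference that was not tested by itself.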

How the results depend on the processing

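The late change and the slide cannot be told apart, so the planned fit with slide or scan day as a block was not run, and no scaling removes the dye bias of a ratio against 0. No paired analysis was possible because each time point had 1 array and no replicate numbers beyond 1. Of 230 alternative counts 140 stayed within 1.5 times the reported count.

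The 8 probes called higher by late ratio became 4 with the software log ratio or loess on processed signals, 5 with a normexp offset of 10, 1 with no filter on dim probes, and 0 with the series matrix or 1 factor per array. Leaving out 1 late array gave 0 to 13. For the late change, where 0 were called, the software log ratio, processed signals and no filter each gave 1 higher (no filter also 1 lower), a spread shared by all 5 lines gave 56 higher and 21 lower, and leaving out 1 array gave 0 to 12 higher and 0 to 2 lower. Against the other lines no filter gave 1 higher and 5 lower, and 1 h in place of 30 min gave 3 higher and 104 lower. In the other lines the 2 held probes called by late ratio became 7 (software, series matrix, processed signals), 6 (1 factor, offset of 10), 4 (both channels) or 0 (no filter), and 0 to 6 with 1 line or time point left out. The 1 called by late change became 0 with the software log ratio, 1 factor, processed signals and no filter, and 0 to 3 with a line left out.

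The 32 held up and 6 down became 130 and 19 with the software log ratio, 133 and 24 with the series matrix, 135 and 20 with processed signals, 75 and 0 with 1 factor, and 56 and 13 with the offset of 10. Of the 38 held probes 28 to 38 were held under these, and 6 of 6 BMP target probes. With 3 consecutive time points 6 were up and 0 down, with 1.5-fold 500 and 485, with 3-fold 1 and 0, without 30 min and 12 h 7 and 0, and with 1 array left out 14 to 32 up and 0 to 6 down.

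Probes at 2-fold with the software log ratio numbered 341, 41, 112, 1784 and 123 from 1 to 24 h. The series matrix gave 554 at 30 min and 39, 126, 1904 and 124 from 3 to 24 h. Processed signals gave 361, 43, 121, 1787 and 124 from 1 to 24 h. With 1 factor there were 653, 7 and 4061 at 1, 3 and 12 h, while the offset of 10 gave 44 at 6 h, and no filter 24 at 3 h. At 1.5-fold they were 1313, 954, 98, 889, 3301 and 270 in order of time.

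Of 899 values of named genes, 808 stayed on their side of the threshold in the same direction, 62 called values lost the call, 11 gained one and 18 changed sign. With 1 h as the baseline the late change was -1.75 for RPL37A, -1.70 for MALAT1, -0.37 for PIP, -0.56 for TncRNA, -1.14 for TMSB4X, 0.24 for ROBO1, 0.11 for RPS2, 1.16 for CTNNB1, 0.014 for FUT1 and -0.12 for HEY1, and with the mean of 30 min and 1 h -0.25 for RPL37A and 0.019 for CTNNB1. SMAD7 had a late change of 0.027 (software), 0.14 (series matrix) and 0.056 (processed signals). With 1 late array left out the late ratio was -0.0085 (without 3 h) to 0.16 for LY6G5C and -0.040 (without 12 h) to 0.074 for TMEM142C, -0.016 without 6 h. DDEF1 at 24 h was 0.55, 0.52 and 0.56 with the software log ratio, series matrix and processed signals, and the causes of these moves were not tested.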
